A study of Mus musculus with 8 samples.

Results

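The ErbB receptors and the growth factors of the EGF family that bind them were followed in mouse ovarian cancer cells with and without an active Notch3. The genes were taken by symbol from the count tables: 4 receptors (Egfr, Erbb2, Erbb3 and Erbb4) and 6 ligands (Areg, Ereg, Hbegf, Tgfa, Btc and Nrg1), 10 of the 23284 symbols listed. All 10 were present in the tables, and 9 of them passed the filter on low counts, the exception being Erbb4.

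ID8 IP2 is a line derived from mouse ovarian surface epithelium and passaged through mice, and all the lines carried a luciferase-mCherry vector. Notch3IC cells were infected with a lentivirus (pCCL vector) for codons 1664 to 2318 of Notch3, its intracellular domain, with an HA tag and an IRES-GFP, while Control cells received the empty pCCL vector and so lacked the GFP as well as the insert. There were 4 matched sets, each a separate infection with 1 Control and 1 Notch3IC line, grown in DMEM with 10% serum and 1% ITS supplement, and polyadenylated RNA of these 8 lines was sequenced. The p-values therefore describe the spread between infections of a single parental line. The Notch3 domain is made from the vector and needs no ligand, the counts do not separate its reads from those of the endogenous gene, and later testing by the study pointed to mycoplasma in all its ID8 IP2 lines. Taken in the order of Sets 1 to 4, the Control libraries held 24910528, 19013578, 23601232 and 28208072 reads counted on genes, and those of Notch3IC held 22980440, 15524262, 25344051 and 27107061.

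ErbB receptors are tyrosine kinases of the cell surface that work in pairs. Egfr, Erbb3 and Erbb4 bind ligands, whereas Erbb2 has no known ligand and serves as the preferred partner of the others, and Erbb3 has little kinase activity of its own. The ligands are made as membrane-anchored precursors and released by proteases of the ADAM family: Areg and Tgfa bind Egfr, Ereg, Hbegf and Btc bind both Egfr and Erbb4, and Nrg1 binds Erbb3 and Erbb4. The receptors pass the signal to the RAS-MAPK and PI3K-AKT routes and are known as drivers of growth in many epithelial cancers.

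The label check came first. Notch3 had 38.6, 40.6, 70.8 and 42.0 normalized counts (counts scaled to a common library size) in the Control lines (Sets 1 to 4). The Notch3IC lines had 4319, 467, 9215 and 5839, so every library matched its label. The log2 ratio of Notch3IC to Control was 6.79, 3.51, 7.01 and 7.10 in the sets, and the Notch3IC line of Set 2 had by far the lowest Notch3 of its group. Hey1, a transcriptional repressor and Notch target, was higher in Notch3IC by 7.35 on the log2 scale (standard error, SE, 0.99, adjusted p = 0.0169).

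The sequence 5′ of the start of Egfr and of Btc, the tested receptor and the ligand with the largest log2 fold change in size, is shown with the strand of each gene (RefSeq, GRCm38.p6). Capitals mark the single match in Egfr to a GC box of the factor SP1 (GGGCGG, here on the minus strand, with its first printed base 9 bases before the start).
Egfr: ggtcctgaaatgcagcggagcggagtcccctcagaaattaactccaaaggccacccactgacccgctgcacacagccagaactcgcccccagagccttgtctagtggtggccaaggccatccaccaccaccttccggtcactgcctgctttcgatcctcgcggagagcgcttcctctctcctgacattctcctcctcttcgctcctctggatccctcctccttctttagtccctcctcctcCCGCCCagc
Btc: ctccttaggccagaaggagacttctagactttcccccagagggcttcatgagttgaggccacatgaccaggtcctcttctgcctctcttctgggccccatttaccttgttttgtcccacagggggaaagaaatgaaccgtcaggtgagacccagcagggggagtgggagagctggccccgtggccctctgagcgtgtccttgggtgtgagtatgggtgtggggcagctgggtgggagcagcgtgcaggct
The Egfr window is chr11:16751953-16752202 on the plus strand with 60.8% G and C, and the Btc window is chr5:91402995-91403244 on the minus strand with 59.6%. Both strands were searched for the core of RBPJ, the DNA-binding partner of Notch (TGGGAA), an E-box (CACGTG), an AP-1 site (TGAGTCA) and the GC box. Among 32851 promoter windows of the same 250 bases these letters occurred in 21.6%, 6.02%, 4.46% and 32.7%. The Btc window held none of them, and that of Egfr held only the GC box. Areg had 1 RBPJ core 165 bases before its start and 1 GC box, Tgfa had 2 GC boxes, and Erbb2 and Erbb4 had no match. Windows of Erbb3, Ereg, Hbegf and Nrg1 are not reported here.

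Among the receptors, Egfr rose in Notch3IC cells, Erbb2 stayed within a narrow range, Erbb3 was lower without passing the test and Erbb4 was barely detected. Egfr lies on chromosome 11 from 16752203 to 16918158 (GRCm38). In the order of Sets 1 to 4, its Control lines had 2458, 3116, 2921 and 2781 normalized counts, and its Notch3IC lines had 5319, 3014, 9390 and 7762. The Control lines were close together, Sets 1, 3 and 4 of Notch3IC were above all of them, and the Notch3IC line of Set 2 lay among them. The mean went from 2819 ± 277 (SD, n = 4) to 6371 ± 2794 (SD, n = 4), a log2 fold change of 1.18 (SE 0.31, 95% interval 0.48 to 1.88, adjusted p = 0.0802). Calls here need an adjusted p below 0.1 together with a log2 fold change of 1 or more, up or down. Egfr was the only one of the 9 tested genes called higher with condition as the single term, and none was called lower, beside 3.4% of all 12430 genes tested called higher and 0.74% called lower. At an unadjusted p below 0.05 there were 3 members, Egfr, Nrg1 and Erbb3, beside 18.4% of genes tested. In bulk RNA of this kind, fewer cells of a type and less RNA per cell cannot be told apart. The log2 ratios within sets were 1.11, -0.05, 1.68 and 1.48, so the Set 2 pair, the one with the smallest Notch3 ratio, was level in Egfr. The call was kept when the Notch3IC line of Set 2 was left out (log2 fold change 1.41, adjusted p = 0.00458) and lost when any other single library was, with adjusted p from 0.111 to 0.230 and log2 fold changes from 0.93 to 1.26. It was likewise kept without Set 2 (adjusted p = 0.0142, or 0.000971 with the block) and lost without Set 1, 3 or 4. Those log2 fold changes were 1.20, 0.95 and 1.07 (adjusted p = 0.149, 0.417 and 0.548), or 1.05, 0.86 and 0.93 with the block (adjusted p = 0.192, 0.259 and 0.280). With no library left out, DESeq2 also called Egfr (1.16, adjusted p = 0.00527), as did the fit with the set as a block (1.07, adjusted p = 0.0667).

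**Figure D1:**
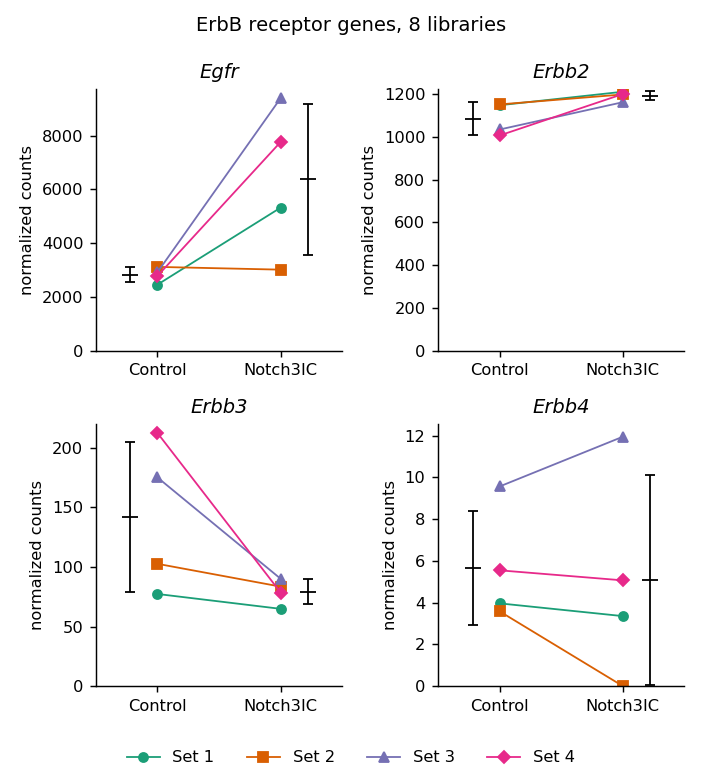
Normalized counts of the 4 ErbB receptors in each library, with Control on the left and Notch3IC on the right of each panel, a line joining the 2 libraries of a set, and black bars for mean ± SD (n = 4). Egfr climbs in Sets 1, 3 and 4 and is level in Set 2, Erbb2 moves little, Erbb3 declines most in Sets 3 and 4, and Erbb4 is close to 0 throughout.

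Erbb2, the ligandless partner on the same chromosome (98412470 to 98437716), had 1148, 1151, 1034 and 1006 normalized counts in Control and 1211, 1198, 1162 and 1200 in Notch3IC. All 4 Notch3IC lines stood above all 4 Control lines, by little. The means were 1085 ± 75.5 and 1192 ± 21.3 (SD, n = 4 each), with a log2 fold change of 0.14 (SE 0.08, 95% interval -0.05 to 0.32, adjusted p = 0.413). The interval leaves room for a rise of up to 0.32 on the log2 scale. Erbb2 was thus one of 2 members whose Notch3IC libraries all lay above the Control libraries, the other being Nrg1, beside 7.08% of all genes tested, and no member had all its Notch3IC libraries lower, beside 3.75%. These same members were the ones higher in all 4 sets, beside 21% of genes tested.

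Erbb3, the kinase-poor receptor for neuregulins on chromosome 10 (128567523 to 128589652), varied more among Control lines than Notch3IC lines. The Control lines had 77.3, 103, 175 and 212 normalized counts of it, and the Notch3IC lines 64.8, 83.5, 90.1 and 78.5. Each set had less Erbb3 in its Notch3IC line, with log2 ratios of -0.25 and -0.30 in Sets 1 and 2 and of -0.95 and -1.43 in Sets 3 and 4, but the groups overlapped. Control averaged 142 ± 62.7 and Notch3IC 79.2 ± 10.7 (SD, n = 4 each), for a log2 fold change of -0.84 (SE 0.32, 95% interval -1.58 to -0.10, adjusted p = 0.209). With the set as a block the adjusted p was 0.0812, at a log2 fold change of -0.77 that is under the limit of 1.

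Erbb4, a receptor for neuregulins and for several Egfr ligands, had 4, 3, 10 and 7 counts in Control and 3, 0, 13 and 6 in Notch3IC. It was left out of the fit by the filter on low counts. Its normalized counts were 5.66 ± 2.74 and 5.09 ± 5.03 (SD, n = 4 each), with p = 0.83 in an exact two-sided permutation test, which cannot go below 0.0286 with 4 against 4. A difference was not detectable at this depth, and the 0 in the Notch3IC line of Set 2 allows up to 4.40 normalized counts (3 counts, counting error only).

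The ligands moved in different directions. Nrg1 was higher and Btc lower in every set, and both were called with the matched set entered as a block. DESeq2 with condition alone also called Nrg1. Ereg was lower in every set without a call, and Hbegf, Tgfa and Areg went up in some sets and down in others. With the block, 2 of the 9 members were called higher (Egfr and Nrg1) and 1 lower (Btc), beside 5.19% and 2.53% of all genes tested. The Control and Notch3IC lines of a set were made as a pair, so the block uses the comparison within sets.

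**Figure D2:**
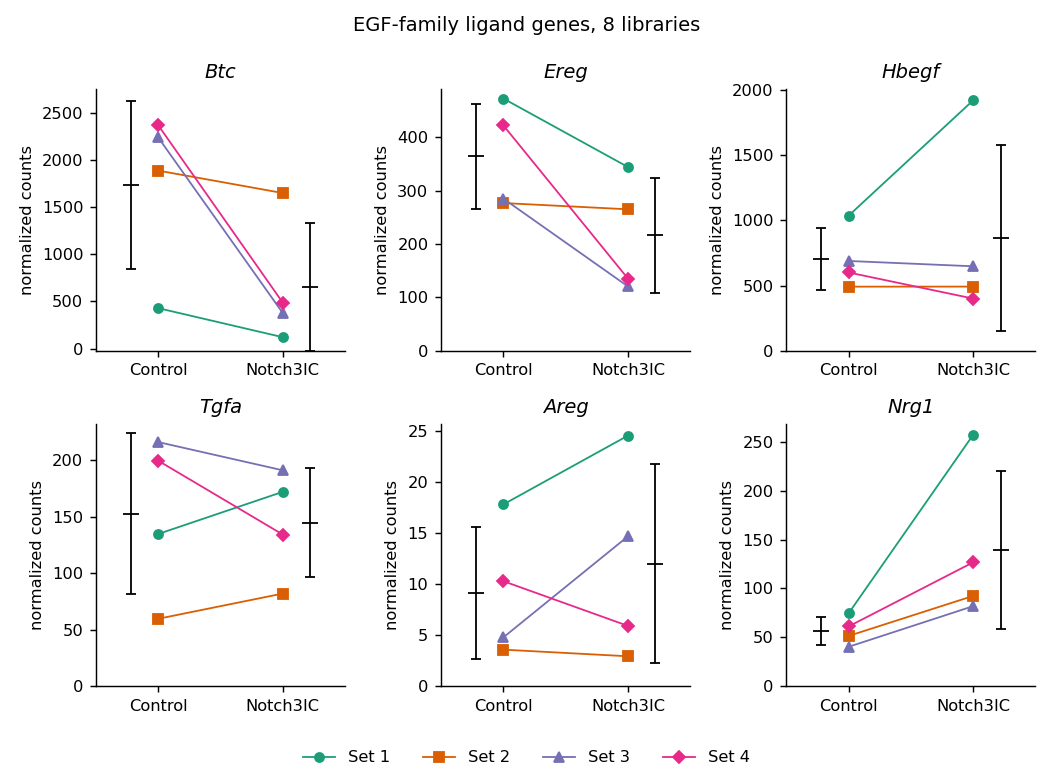
Normalized counts of the 6 EGF-family ligands in each library, drawn as for the receptors, with lines joining the 2 libraries of a set and black bars for mean ± SD (n = 4). Btc and Ereg descend along every line and Nrg1 climbs along every line, whereas the lines of Hbegf, Tgfa and Areg cross.

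Nrg1, which encodes the neuregulins bound by Erbb3 and Erbb4, lies on chromosome 8 from 31814551 to 32884029. It was a low transcript, with 74.3, 51.3, 40.2 and 61.0 normalized counts in Control and 257, 92.3, 81.8 and 127 in Notch3IC. The lowest Notch3IC line was above the highest Control line, and the Notch3IC line of Set 1 was the highest of all. The means were 56.7 ± 14.5 and 139 ± 80.7 (SD, n = 4 each), a log2 fold change of 1.30 (SE 0.40, 95% interval 0.39 to 2.20, adjusted p = 0.124) that was not called with condition alone. With the block it rose by 1.20 on the log2 scale (SE 0.20, 95% interval 0.70 to 1.69, adjusted p = 0.0290), a fold of 2.29. DESeq2 called it too (1.27, adjusted p = 0.0225), which made 2 members higher and 0 lower with that tool, beside 5.05% and 1.37% of the genes it tested. With the block the call was kept without Set 2 (adjusted p = 0.00730) and lost without Set 1, 3 or 4, at log2 fold changes of 0.97, 1.25 and 1.25 (adjusted p = 0.126, 0.132 and 0.121), and with condition alone the log2 fold change was 0.83 without the Notch3IC line of Set 1. The log2 ratios of the sets were 1.78, 0.84, 1.02 and 1.05. Gm26578, on the other strand, covers 4.66% of the exon bases of Nrg1, and whether the libraries kept the strand is not given in the sources used here.

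Btc, a ligand of Egfr and Erbb4, sits on chromosome 5 from 91357261 to 91402994. Its Control lines had 429, 1889, 2240 and 2370 normalized counts, and its Notch3IC lines 121, 1650, 376 and 486. The Control line of Set 1 and the Notch3IC line of Set 2 stood apart from the rest of their groups, so the groups overlapped although each pair fell the same way. The means were 1732 ± 892 and 658 ± 679 (SD, n = 4 each), with a log2 fold change of -1.40 (SE 0.77, 95% interval -3.16 to 0.36, adjusted p = 0.381). With the block Btc fell by 1.73 on the log2 scale (SE 0.42, 95% interval -2.78 to -0.68, adjusted p = 0.0538), 3.31-fold. In Set 2 the log2 ratio was only -0.19, against -1.83, -2.57 and -2.28 in Sets 1, 3 and 4. Leaving out Set 2 gave -2.28 and an adjusted p of 0.000409 with the block, while leaving out Set 1, 3 or 4 ended the call at log2 fold changes of -1.70, -1.42 and -1.51 (adjusted p = 0.167, 0.217 and 0.244).

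The label's tissue was checked beside Btc with markers of mesothelium and ovarian surface. Of 9 such genes 8 were in the tables, all 8 had a log2 fold change below 0, and 2 were called lower (Msln and Upk1b), or 5 with the block, beside 0.74% and 2.53% of all genes tested. Summed, their normalized counts came to 24456, 47803, 72993 and 67392 in Control lines and to 7263, 30342, 25706 and 19586 in Notch3IC lines, and Upk3b was the most abundant. As for Btc, the Control line of Set 1 was the lowest Control line and the Notch3IC line of Set 2 the highest Notch3IC line. Epithelial markers summed to 10035 ± 4121 in Control and 4668 ± 1644 in Notch3IC (SD, n = 4 each), mostly keratins led by Krt19. All 4 that were tested had a log2 fold change below 0, with 0 called with condition alone (2 at an unadjusted p below 0.05) and 1, Krt19, called lower with the block and by DESeq2. Krt8 and Krt18 are in this list and in the mesothelial one, so the 2 lists and their sums are not independent. Epcam, a defining marker, had at most 12 counts and Cldn4 at most 3. Fibroblast markers summed to 131149 ± 54920 and 267288 ± 101475, led by Col1a1, and 1 of the 6 tested was called higher (Pdgfrb), or 4 with the block, beside 3.4% and 5.19% of all genes tested. Leukocyte markers summed to at most 128 normalized counts in any library, with Cd3e at 0 throughout, and 1 of the 2 tested, Csf1r, was called higher (log2 fold change 1.52, adjusted p = 0.0719, at most 36 counts). Endothelial markers summed to at most 51.4 and neural markers to between 787 and 1329, mostly Mbp. The part of these markers in the results for the ErbB genes was not tested.

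Ereg, or epiregulin, lies at lower coordinates than Btc on chromosome 5 (91074622 to 91093646). In Control it had 473, 277, 285 and 422 normalized counts, and in Notch3IC 344, 265, 120 and 135. The Notch3IC lines of Sets 3 and 4 were lower than every Control line, and those of Sets 1 and 2 were within the Control range or just beneath it. The means were 364 ± 98.4 and 216 ± 107 (SD, n = 4 each), with a log2 fold change of -0.76 (SE 0.36, 95% interval -1.58 to 0.07, adjusted p = 0.313). The block gave -0.85 and an adjusted p of 0.0909, under the fold-change limit. Adjusted p alone was below 0.1 with the block for Egfr and Nrg1 upward and for Erbb3, Ereg and Btc downward, beside 14.9% and 12.1% of all genes tested.

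Areg, or amphiregulin, lies between Ereg and Btc on chromosome 5 (91139599 to 91148432), but was counted only 18, 3, 5 and 13 times in Control and 22, 2, 16 and 7 times in Notch3IC. It was higher in Sets 1 and 3 and lower in Sets 2 and 4. The log2 fold change of 0.39 had a 95% interval from -1.19 to 1.97 (SE 0.69, adjusted p = 0.826), so a difference was not detectable at this depth. Of the members on this stretch of chromosome 5, Ereg and Btc thus had fewer normalized counts in the Notch3IC line of all 4 sets, and Areg in that of 2 sets. Epgn, a ligand outside the members, lies at lower coordinates than Ereg and was named after its values were seen. It was higher in 4 of 4 sets, but had only 3, 2, 1 and 1 counts in Control and 4, 6, 3 and 2 in Notch3IC and was not tested. Erbb3, Ereg and Btc were the 3 members lower in 4 of 4 sets, beside 19.4% of all genes tested.

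Hbegf, the heparin-binding ligand on chromosome 18, had 1036, 492, 689 and 601 normalized counts in Control and 1921, 492, 648 and 400 in Notch3IC. Both lines of Set 1 were the highest of their group, and the log2 ratios ran from 0.89 in Set 1 to -0.59 in Set 4. The log2 fold change was 0.30 (SE 0.50, 95% interval -0.83 to 1.43, adjusted p = 0.815), and without the Notch3IC line of Set 1 it was -0.45. For Tgfa, the transforming growth factor alpha gene, the Control lines had 135, 59.7, 216 and 199.7 normalized counts, and the Notch3IC lines 172, 82.0, 191 and 134. The Set 2 lines were the lowest of either group, and the log2 fold change was -0.07 (SE 0.41, 95% interval -1.01 to 0.86, adjusted p = 0.954). Its sign changed with the libraries used, for example to 0.14 without the Control line of Set 3.

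**Figure D3:**
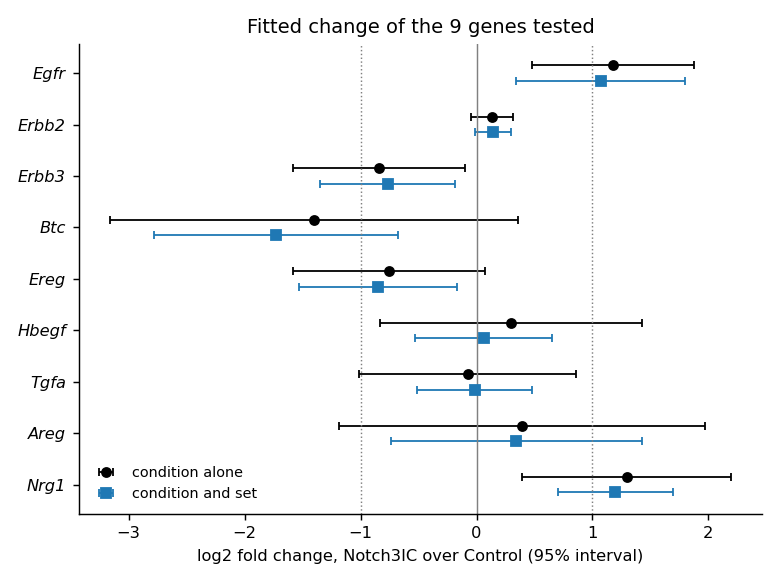
Log2 fold change of Notch3IC over Control for the 9 tested members, with 95% intervals, fitted with condition alone (circles) and with condition and set (squares), and dotted lines at the limit of 1 in size. Egfr and Nrg1 lie past 1 in both fits with intervals above 0, and the intervals of Btc and Ereg clear 0 only with the set in the fit. Erbb3 has intervals below 0 in both fits, at fold changes under the limit.

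Differences between the sets were tested in the fit with both terms. There, 4 of the 9 members differed between the 4 sets at an adjusted p below 0.1, beside 36.1% of all genes tested: Hbegf (adjusted p = 0.0461), Tgfa (0.0517), Nrg1 (0.0552) and Btc (0.0622). All 4 are ligands. Adjusted p was 0.468 for Egfr and 0.610 for Erbb2. Without Set 1, 0 members passed, and the 4487 of all genes tested that passed became 22. Set 1 was high in Hbegf and Nrg1 and low in Btc, and Set 2 was low in Tgfa. Whether the effect of Notch3IC itself differed between sets could not be tested with 1 line per set and condition.

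**Figure D4:**
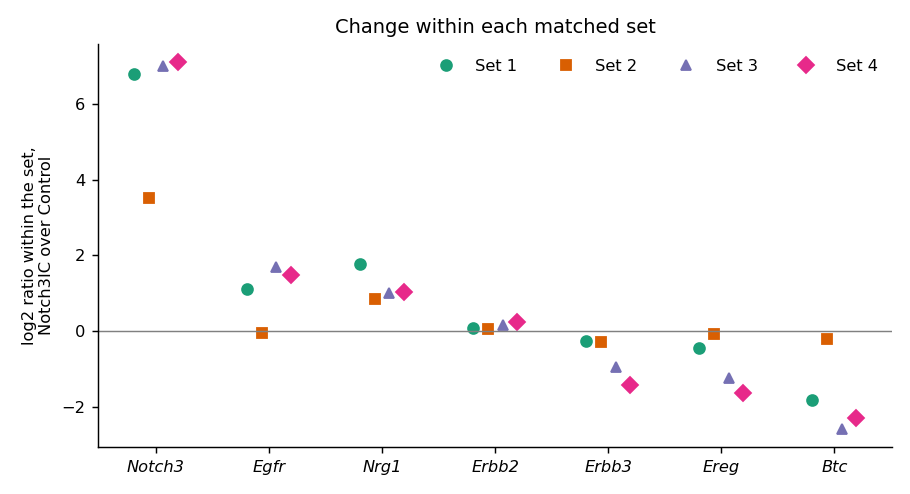
Log2 ratio of Notch3IC to Control normalized counts within each of Sets 1 to 4 (pseudocount 0.5) for Notch3 and for Egfr, Nrg1, Erbb2, Erbb3, Ereg and Btc. Set 2 has the smallest Notch3 ratio (3.51). Its ratios of Egfr (-0.05), Nrg1 (0.84), Erbb2 (0.06), Ereg (-0.06) and Btc (-0.19) are also the nearest to 0. Erbb3 is nearest to 0 in Set 1 (-0.25, against -0.30 in Set 2). Of members not drawn, Hbegf and Areg are also nearest to 0 in Set 2, while Tgfa (0.46) and Erbb4 (-3.03) are not. A link to the Notch3 ratio was not tested.

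To compare genes with each other, levels were computed as counts per kilobase of exon per 1000000 scaled reads. In Control cells the order from the highest mean level was Btc, Egfr, Erbb2, Hbegf, Ereg, Erbb3, Tgfa, Areg, Nrg1 and Erbb4. Btc was at 16.4 ± 8.46, Egfr at 10.7 ± 1.05 and Erbb2 at 8.93 ± 0.62 (levels, SD, n = 4 each), and their libraries overlapped. Only Ereg above Erbb3 (3.78 ± 1.02 against 1.01 ± 0.447) and Nrg1 above Erbb4 (0.235 ± 0.0601 against 0.0197 ± 0.0095) were neighbours whose libraries did not overlap. In Notch3IC cells Egfr came first at a level of 24.1 ± 10.6, ahead of Erbb2 at 9.81 ± 0.175 with no overlap between these neighbours. The lowest Egfr level, 11.4 in Set 2, was nevertheless below the highest levels of Hbegf (17.0, Set 1) and Btc (15.7, Set 2). Next in the order came Hbegf at 7.68 ± 6.31, Btc at 6.24 ± 6.44 and Ereg at 2.25 ± 1.11, whose libraries overlapped from each to the next. Tgfa, Nrg1, Erbb3 and Areg had levels between 0.957 and 0.425, and Erbb4 was again the lowest. Both orders depend on the gene length used. With coding length in place of exon bases, that of Control was Btc, Hbegf, Egfr, Ereg, Tgfa, Erbb2, Erbb3, Nrg1, Areg and Erbb4. That of Notch3IC was then Egfr, Hbegf, Btc, Ereg, Erbb2, Tgfa, Nrg1, Erbb3, Areg and Erbb4.

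The receptor total was set mainly by Egfr and Erbb2. Receptor levels summed to 19.3, 22.0, 20.8 and 20.3 in the Control lines, and to 30.6, 21.9, 45.8 and 39.8 in the Notch3IC lines. Egfr made up between 48.2% and 53.6% of that sum in Control, and 65.9%, 52.2%, 77.6% and 73.8% in the Notch3IC lines of Sets 1 to 4. The ratio of Egfr to Erbb2 level was 0.985, 1.25, 1.30 and 1.27 in Control and 2.02, 1.16, 3.72 and 2.98 in Notch3IC. Both quantities depend on the gene length used: with coding length in place of exon bases the ratio averaged 2.71 ± 0.327 in Control and 5.57 ± 2.52 in Notch3IC, and the share of Egfr 70.4% ± 2.01 and 81.8% ± 7.80 (SD, n = 4 each). Ligand levels summed to 19.99, 25.9, 32.1 and 34.1 in Control and 24.8, 23.8, 12.7 and 11.2 in Notch3IC. Btc supplied 20.4% of the ligand sum in the Control line of Set 1 and between 65.9% and 69.2% in the other Control lines. In Notch3IC it supplied 4.61%, 65.8%, 28.1% and 41.2%. By exon bases, Hbegf was the leading ligand in both lines of Set 1 and in the Notch3IC line of Set 3, and Btc in the other 5 libraries. With the longest transcript as the length, Btc supplied 34.5% in the Notch3IC line of Set 4.

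**Figure D5:**
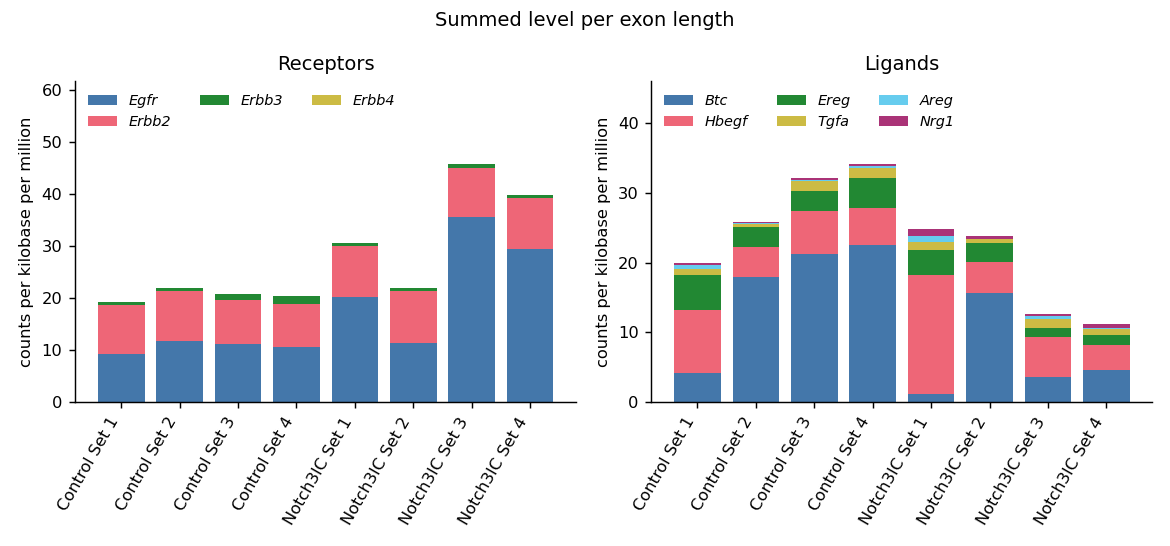
Summed levels of the receptors and of the ligands in each of the 8 libraries, in counts per kilobase of exon per 1000000 scaled reads, stacked by gene. The receptor stacks of Notch3IC Sets 1, 3 and 4 are taller through Egfr, and the ligand stacks of Notch3IC Sets 3 and 4 are shorter through Btc.

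The genes whose pattern over the 8 libraries was most like that of Egfr were Prkar1a (Pearson r = 0.993), a regulatory subunit of protein kinase A, Ctsc (0.993), the protease cathepsin C, and Thbd (0.989), the thrombomodulin gene. These correlations are of log2 counts scaled by library size in the same libraries and describe likeness only. Thbd went from 356 ± 40.9 to 1775 ± 1142 normalized counts (SD, n = 4 each), a log2 fold change of 2.32 (SE 0.51, adjusted p = 0.0468). Ctsc rose by 1.30 on the log2 scale (SE 0.35, adjusted p = 0.0835), and Prkar1a, at 0.54 (adjusted p = 0.121), was not called.

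The other genes of the pathway were taken in lists. The 6 lists held 98 genes, of which 89 were tested, and 1 was called higher and 0 lower with condition alone, beside 3.4% and 0.74% of all genes tested. With the block 3 were called higher and 2 lower, beside 5.19% and 2.53%, and of the same 89 genes DESeq2 called 3 higher and 1 lower, beside 5.05% and 1.37% of the 14019 genes that it tested. At an unadjusted p below 0.05 there were 15 of the 89, beside 18.4% of all genes tested, a share that also stands beside the counts at that p in the single lists. Log2 fold changes were above 0 for 48 and below 0 for 41, with a median of 0.01, against -0.01 over all genes tested. Of the 5 remaining ErbB ligands only Egf and Nrg4 were tested, and neither was called in any of the 3 fits or had an unadjusted p below 0.05. Egf, the founding ligand of Egfr, had 46.8 ± 3.91 normalized counts in Control and 50.6 ± 6.64 in Notch3IC (SD, n = 4 each, adjusted p = 0.833), and Nrg3 was at 0 in all libraries.

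Among the 12 tested genes of ligand shedding and trafficking, 7 had log2 fold changes above 0 and 5 below, with a median of 0.05, and none was called with condition alone (2 at an unadjusted p below 0.05). Adam12, a metalloprotease that can release Hbegf, went from 1139 ± 919 to 3078 ± 445 normalized counts, with a log2 fold change of 1.44 (SE 0.58, adjusted p = 0.232), and was called higher by DESeq2 and with the block (1.87, adjusted p = 0.0674). Rhbdf1, an inactive rhomboid that guides the ligand sheddase Adam17, had a log2 fold change of 0.28 (SE 0.09, adjusted p = 0.139). The main sheddases Adam17 and Adam10, named after their values were seen, had log2 fold changes of -0.08 and 0.05. Timp3, an inhibitor of these proteases and the most abundant gene of the list, was at -0.29 (adjusted p = 0.701).

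None of the 17 tested inhibitors and degradation genes was called with condition alone, the block or DESeq2, and 2 had an unadjusted p below 0.05 (8 above 0, 9 below, median -0.00074). Spry1, a feedback inhibitor of the RAS-MAPK route, had 312 ± 86.9 normalized counts in Control and 534 ± 102 in Notch3IC, and its log2 fold change of 0.78 (SE 0.21, adjusted p = 0.0933) was under the limit. The tyrosine phosphatase gene Ptpn1 was at 0.36 (adjusted p = 0.137), and Usp8, a deubiquitinase that acts on internalized receptors and the most abundant of the list, had an adjusted p of 0.657.

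Of the 34 tested adaptor and relay genes, 20 were above 0 and 14 below (median 0.01), and none was called with condition alone or by DESeq2, with 6 at an unadjusted p below 0.05. Plcg1, the phospholipase C gamma bound by active Egfr, was at 0.39 (SE 0.09, adjusted p = 0.0619), under the limit, and Akt1, the most abundant, had an adjusted p of 0.892. With the block 1 gene was called, Eps8, a substrate of Egfr that was named after its values were seen. It fell by 1.70 on the log2 scale (adjusted p = 0.0498), with 1206 ± 506 normalized counts in Control and 552 ± 654 in Notch3IC.

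Early response genes, which growth factor signalling induces quickly, did not move together, with 7 above 0, 10 below and a median of -0.05 among the 17 tested. Dusp1, a phosphatase that inactivates MAP kinases, was the 1 gene called with condition alone, rising by 1.24 on the log2 scale from 356 ± 35.1 to 843 ± 371 normalized counts (SE 0.30, adjusted p = 0.0623). Jun, an AP-1 subunit named after its values were seen, was called by DESeq2 and with the block as well (1.12, adjusted p = 0.0473). Dusp6, the feedback phosphatase of ERK, also named after its values were seen, had 2069 ± 393 and 2085 ± 471 normalized counts (adjusted p = 0.985).

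Among 7 receptors and partners with known cross-talk to ErbB receptors, 5 were above 0 and 2 below (median 0.11), and none was called with condition alone (2 at an unadjusted p below 0.05). Mst1r, the receptor for macrophage-stimulating protein, went from 1301 ± 412 to 513 ± 296 normalized counts, with a log2 fold change of -1.35 (SE 0.44, adjusted p = 0.145), and was called lower by DESeq2 and with the block (-1.46, adjusted p = 0.0237). Erbin, which binds Erbb2 and is listed under its older symbol Erbb2ip, had 5242 ± 346 and 6511 ± 211 normalized counts, a log2 fold change of 0.31 (SE 0.08, adjusted p = 0.0848) under the limit. Axl, the most abundant of these, had an adjusted p of 0.754.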

How the data were processed

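Poly-A RNA libraries (TruSeq) were sequenced as single-end reads of 100 bases. Per the labels and the study's methods, the authors aligned reads to mm9 with TopHat, counted with Cufflinks and compared groups with DESeq. Versions, the annotation and the strandedness are not given in the sources used here. The authors deposited raw counts per gene symbol, without normalization, 1 table per library. The members and all gene lists were chosen with earlier results of these data known.

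Counts were tested with edgeR 4.0.16 in R 4.3.3 (TMM, filterByExpr by condition, robust quasi-likelihood fit, F test), with condition as the only term, and p-values were adjusted by Benjamini-Hochberg over the 12430 genes tested. The SE is the log2 fold change divided by the root of F. For normalized counts, counts were brought to the mean library size with the TMM factors, and ratios within sets use a pseudocount of 0.5. Levels use the exon union of GENCODE M21, which also gives positions on GRCm38. Promoter windows are RefSeq's, and a gene was counted as holding a motif on either strand. The biological coefficient of variation was 26.3% with condition alone and 14.1% with the set as a block.

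The sets are matched pairs in the study's description. After subtracting group means, the Pearson r over genes between the 2 libraries of Sets 1 to 4 was 0.794, 0.398, 0.569 and 0.416. Libraries of different sets gave -0.51 to 0.39, so the set number was taken to pair the libraries. The fit without the block stays the main one because the study names no set term, and the blocked value is printed where it changes a call.

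All members are named. Of each other list, the called genes are named, or else the 2 with the smallest p, with the most abundant gene, as well as the 3 genes most like each called member. Other genes are said to be named after their values were seen. A gene that this rule names is not reported here. Alternatives tried were the replicate block, DESeq2 1.42.0, scaling by RLE, upper quartile or library totals, dropping the filter or asking for 10 counts in all libraries, a limit of 0.05 on the adjusted p, no limit on the fold change, other gene lengths, a pseudocount of 1, and omission of single libraries or sets. The block with a set left out, and other lengths for the shares of levels, were chosen after seeing the data. Figures were drawn with Python 3.11.15 and Matplotlib 3.10.9.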

Additional observations from a re-analysis of the deposited data

Results flagged for a closer look

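Hbegf in the Notch3IC line of Set 1 had 1921 normalized counts, while the other 3 Notch3IC lines had between 400.2 and 648. Its gap to the nearest line was 0.837 of the range of the group, and Dixon's 95% limit for 4 libraries was passed. Of 22 groups of 4 libraries searched this was the 1 that passed, and chance alone passes about 1 in 20 groups.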

How the results depend on the processing

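Normalization (RLE, upper quartile, library totals) and both other filters left the count of called members at 1 higher and 0 lower. DESeq2 called 2 members higher, the replicate block 2 higher and 1 lower, and an adjusted p under 0.05 called 0 higher. Leaving out a library or a set gave 0 to 2 members higher and 0 to 1 lower, and with the block a set left out gave 0 to 2 in each direction. Across all genes, 423 higher and 92 lower calls became 708 and 192 with DESeq2 and 645 and 315 with the block, and lower calls became 48 at an adjusted p under 0.05 and 210 with no fold-change limit. Leaving out a library or a set gave 0 to 702 higher (0 without Set 4, 1 without Set 3) and 0 to 305 lower. With the block these were 46 and 23 without Set 1, 904 and 426 without Set 2, 59 and 22 without Set 3, and 129 and 30 without Set 4.

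The 4 members that differed between sets became 1 (Hbegf) at an adjusted p under 0.05 and 0 to 5 with a set left out (0 without Set 1). The 4487 genes that differed between sets became 2687 at an adjusted p under 0.05 and 22 to 5663 with a set left out, the fewest without Set 1. In the order of levels, 2 members kept their place in Control by coding length and 4 by longest transcript, and 6 did in Notch3IC by coding length. Btc stayed first in Control, Egfr first in Notch3IC and Erbb4 last in both.

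Among values of single members under the alternatives, 188 kept their direction and side of the threshold, 14 lost a call (all of Egfr), 9 gained one and 11 changed sign. Hbegf was at -0.45 without the Notch3IC line of Set 1, -0.21 without Set 1 and -0.23 without Set 1 in the block. Tgfa was at 0.14 without Control Set 3, 0.08 without Control Set 4, 0.11 without Notch3IC Set 2, 0.12 without Set 4, and 0.051 and 0.19 in the block without Set 3 and Set 4. Areg was at -0.17 without Notch3IC Set 1 and -0.080 in the block without Set 3. With condition alone, leaving out a library or set gave -0.17 to 0.90 for Areg (not tested without Set 1), -0.45 to 0.54 for Hbegf and -0.34 to 0.14 for Tgfa. Without Control Set 1, Erbb3 was called lower (-1.05, adjusted p = 0.0832). Without Notch3IC Set 2, Btc (-2.40, adjusted p = 0.0679) and Nrg1 (1.44, adjusted p = 0.0688) were called. The block without Set 2 also called Ereg (-1.10, adjusted p = 0.0197). The causes were not tested. Low counts limit Areg and Erbb4, and Areg could not be tested under the filter of at least 10 counts. The block changed no member's call other than those of Nrg1 and Btc.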
